A study of Mus musculus with 8 samples.

Results

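Syt1 encodes synaptotagmin 1, a membrane protein of synaptic vesicles that serves as the calcium sensor for fast transmitter release. Its members here were all entries of the authors' deposited table of age-dependent sites that carry the gene name Syt1, 24 of 2055 sites. Only 7 of the 789 genes in the table had more sites. The table compares aged with young cortex cells of mice in an assay of N6-methyladenosine (m6A) based on C-to-U editing.

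Synaptotagmin 1 spans the vesicle membrane once, and its tandem C2 domains face the cytoplasm. Calcium entering a nerve terminal binds loops of both C2 domains, which then engage acidic lipids of the plasma membrane and the SNARE complex, the protein bundle that fuses vesicle and plasma membrane. Neurons of the forebrain, including cortex, express Syt1 strongly. m6A is a methyl mark on adenosine in RNA that is placed during transcription, is found most often in 3' UTRs and near stop codons, and is read by proteins with a YTH domain.

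The aged group was cortex of APOBEC1-YTH mice that were 12 to 14 months old when tamoxifen was started, given at 20 mg/kg every 24 h for 5 days, with tissue taken 7 days after the last dose. APOBEC1-YTH is a cytidine deaminase joined to a YTH domain, so that a C beside a methylated A is converted to U and read as T. The 8 libraries were 4 lanes of each of 2 sublibraries from 1 group. Their labels do not say how animals map to them, so they were not treated as separate animals. The young group entered only through the authors' table, and for it the age, treatment and library kit are not stated. Neither the number of mice of either age nor the promoter of the fusion gene is stated either. The sample protocols describe whole dissociated cells, whereas the design text of the series describes sorted NeuN-stained nuclei. Of markers of cell classes, 4 of 7 neuron genes and 1 of 5 oligodendrocyte genes had a listed site, and 0 of 5 astrocyte, 0 of 5 microglia and 0 of 4 endothelial genes did. That table holds no expression levels, so the cell types behind the Syt1 values could not be checked.

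Each site has 3 measures. The share of methylated cells is the percent of 846 aged or 2623 young cells with the edit. The fraction within those cells is the percent of reads converted, averaged over the methylated cells. The mean C-to-U is averaged over all cells of an age and is the product of the other measures. A cell without Syt1 reads at a site counts as unmethylated, so fewer cells with Syt1 RNA, less Syt1 RNA per cell and less methylation cannot be told apart in the share or the mean. All values are the authors', pooled over the cells of an age with no value per mouse or library. They therefore carry no replicate error, no test between the ages was possible here, and "higher" and "lower" describe the pooled cells. Shares are given with exact binomial (Clopper-Pearson) 95% intervals, which cover counting error only. Reads per site are not given, so the depth behind a C-to-U fraction is unknown. A cell counts as methylated only with converted reads, so read depth affects the share as well as the fraction within methylated cells.

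The 24 sites are numbered from the 5' to the 3' end of transcript Syt1-202, whose 12 exons span 4820 bases on the minus strand of chromosome 10 (mm10). They fell in 8 of the 12 exons. Sites 1 to 10 lay in the 5' UTR, sites 11 to 17 in coding sequence and sites 18 to 24 in the 3' UTR. The sequences below are the ones the results turn on, each of 21 bases on the RNA strand with the edited C in the middle; capitals mark that C and the base before it. Sites 9 and 10 are neighbouring C in a 5' UTR exon that differed in opposite directions, site 16 is the most widely methylated coding site, sites 18, 19 and 23 hold the largest differences in the 3' UTR, and sites 3 and 8 are exon 3 sites without an A before the C.
Site 3, chr10:108902299, exon 3: aagactttgGCgcgctcgaac
Site 8, chr10:108902255, exon 3: gaagacattGCccttgccgtc
Site 9, chr10:108831136, exon 4: aacaaaaaaACccaaatactc
Site 10, chr10:108831135, exon 4: acaaaaaaaCCcaaatactcc
Site 16, chr10:108504473, exon 11: aagaaaaagACaacgattaag
Site 18, chr10:108499500, exon 12: gcacgtgagACtttgtaacaa
Site 19, chr10:108499358, exon 12: tgaaatataACaattagccat
Site 23, chr10:108498226, exon 12: cagacaccgACatttcggttc

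The edited C followed an A at 17 of 24 Syt1 sites (70.8%), against 283 of the other 1108 C of the transcript (25.5%). Over all genes, it did so at 1489 of the 1939 listed sites with a readable sequence and a C at the site (76.8%). The edited C ended an AAC or GAC, the core of the m6A motif, at 16 Syt1 sites (66.7%). This held for 13.4% of the other C and 71.9% of those 1939 listed sites. The 7 sites without a preceding A were sites 1, 2, 3, 6, 8, 10 and 12, and 6 of these 7 lay in the 5' UTR. Editing in this assay marks a C beside a methylated A, and at those 7 sites the base before the C was not an A. Sites 9 and 20 followed runs of 7 and 10 A. The 41 bases around each site occurred in no other annotated gene, and no other annotated gene overlapped a site on either strand.

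By mean C-to-U, aged cells were higher at 6 of the 24 Syt1 sites and lower at 18 (25.0% higher), against 41.5% higher over all 2055 listed sites. By share of methylated cells, they were higher at 19 and lower at 5 (79.2% higher), against 75.4% over all listed sites. By the fraction inside methylated cells, they were higher at 6 and lower at 18 (25.0% higher), against 31.9% of the 2036 listed sites with a methylated aged cell. The median log2 ratio of aged over young at Syt1 was -1.51 for the mean, 1.01 for the share and -1.65 for the fraction within methylated cells. Over all listed sites these medians were -0.87, 1.14 and -0.84. At 13 of the 24 Syt1 sites (54.2%) a larger share of aged cells was methylated while both the fraction within them and the mean were lower, a combination found at 35.6% of all listed sites. With reads per site not given, a higher share with a lower fraction cannot be told apart from more reads per aged cell. Every listed site had passed the authors' thresholds, so none of these counts shows how Syt1 sites outside the table behaved.

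**Figure D1:**
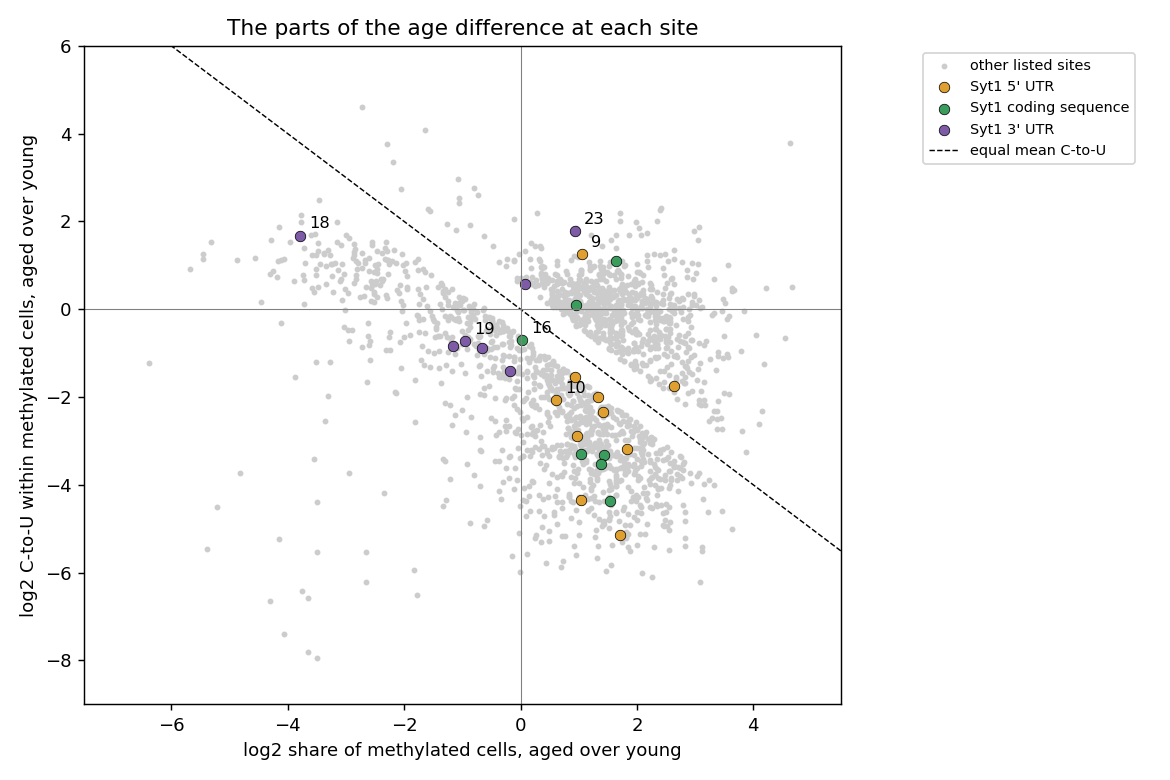
Log2 ratio of aged over young for the share of methylated cells (horizontal) and for the converted fraction in methylated cells (vertical), with Syt1 sites coloured by region and other listed sites in grey; below the dashed line the mean C-to-U was lower in aged cells. Of the 24 Syt1 sites, 13 lie at lower right with a higher share and a lower fraction and mean, while site 18 lies alone among them at upper left.

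Although 18 sites were lower, the mean C-to-U summed over the 24 sites was 13.5% in aged cells and 12.4% in young cells, a ratio of 1.09. Sites 9 and 23 made up 61.6% of the aged sum and 12.3% of the young sum. Without site 9 the sums were 8.41% in aged and 11.4% in young cells, and without site 23 they were 10.3% and 11.9%. Without both, they were 5.20% in aged and 10.9% in young cells, a ratio of 0.478. Both sites had the largest increases in mean, so leaving them out had to lower the ratio. Without site 10, which had the largest decrease, the sums were 12.6% in aged and 9.78% in young cells, a ratio of 1.29. The order of the sites also differed between the ages. In aged cells the highest means were at sites 9, 23, 16, 10 and 21, and in young cells at sites 10, 18, 16, 9 and 19.

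**Figure D2:**
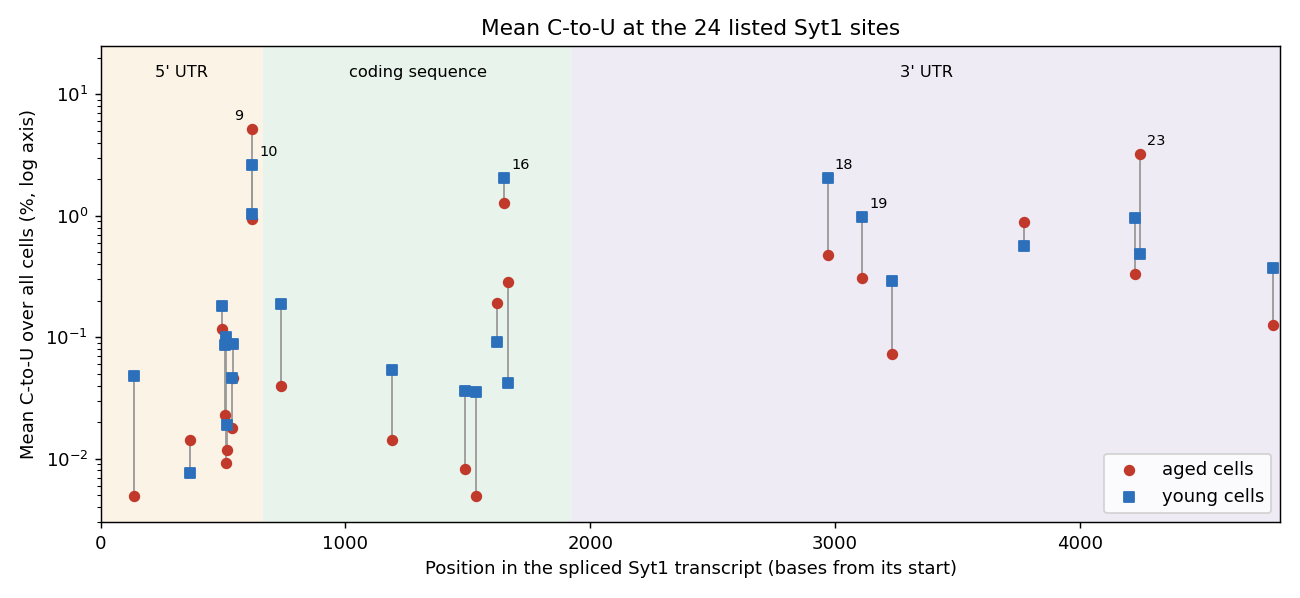
Mean C-to-U over all cells (percent, log axis) at each of the 24 Syt1 sites, placed by position in the spliced transcript, with aged cells as circles and young cells as squares joined by a line; shading marks the 5' UTR, coding sequence and 3' UTR. Sites 9 and 23 stand above all others in aged cells, at 5.14% and 3.20%, and the remaining sites of exons 1, 3, 5, 8 and 10 stay under 0.2% at both ages.

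The 5' UTR carried more listed sites for its length than the rest of the transcript. Its 664 bases held 10 sites (15.1 per kb), against 7 in 1263 coding bases (5.54 per kb) and 7 in 2893 bases of 3' UTR (2.42 per kb). The 5' UTR thus held 41.7% of the Syt1 sites, whereas 80 of all 2055 listed sites (3.89%) lay in a 5' UTR. These are counts of listed sites and not of separate methylated A. Sites 1, 2, 3, 6, 8 and 10 had no A before the C, sites 3 to 8 lay within 45 bases, and sites 9 and 10 were adjacent. Of the 47 genes with a listed 5' UTR site, Syt1 had the most, and Tulp4, a gene of the tubby-like family, came next with 5. A larger share of aged cells was methylated at all 10 Syt1 5' UTR sites, against 76 of 80 over all genes, and the mean was lower at 8 of the 10, against 51 of 80.

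The largest difference in mean was at site 9, in exon 4, 48 bases before the start codon. Its mean C-to-U was 5.14% in aged cells and 1.03% in young cells, a log2 ratio of 2.31 and the 26th largest increase in the whole table. Methylated cells numbered 179 in aged and 267 in young cells, which is 21.2% (18.5 to 24.1) of aged and 10.2% (9.05 to 11.4) of young cells. Within those cells 24.3% of reads were converted in aged and 10.2% in young cells, so both measures were higher in aged cells.

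Site 10, the C directly after site 9, differed the other way by mean. Its mean was 0.949% in aged cells and 2.61% in young cells, a log2 ratio of -1.46. The share of methylated cells was again higher, with 148 aged cells, or 17.5% (15.0 to 20.2), and 300 young cells, or 11.4% (10.2 to 12.7). The fraction within those cells was 5.43% in aged and 22.8% in young cells. By mean, the C after the A (site 9) was the more edited base of the pair in aged cells, and the next C (site 10) was in young cells. The adjusted p-values in the authors' deposited table were 2.02e-20 at site 9 and 0.000115 at site 10. Both bases can be read from the same molecules, so the sites are not independent.

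Exon 3, also in the 5' UTR, held 6 sites within 45 bases, sites 3 to 8. All 6 had a higher share and a lower fraction and mean in aged cells. Site 3 had the most methylated cells of the 6, with 78 aged cells, or 9.22% (7.36 to 11.4), and 126 young cells, or 4.80% (4.02 to 5.69). Its mean was 0.118% in aged and 0.179% in young cells. Site 8 had 66 methylated aged cells, or 7.80% (6.08 to 9.82), and 77 young cells, or 2.94% (2.32 to 3.66), with a mean of 0.0460% in aged and 0.0874% in young cells. The means at sites 3 and 8 were thus low although these sites had the most methylated cells of the 6. Sites 4 to 7 had fewer, with 17 to 26 methylated aged and 20 to 41 methylated young cells. Across the 6 sites the fraction within methylated cells ranged over 0.373 to 1.28% in aged cells and 2.36 to 13.3% in young cells, without overlap. Site 5 had both the lowest aged and the highest young value of the 6.

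Exon 1 held sites 1 and 2. Site 1, at chr10:109010840, had 10 methylated aged and 15 methylated young cells, with a mean of 0.00493% in aged and 0.0482% in young cells. Site 2, at chr10:109010613, was methylated in 24 aged cells, or 2.84% (1.83 to 4.19), and 12 young cells, or 0.457% (0.237 to 0.798). This was the largest ratio of shares among the Syt1 sites (log2 ratio 2.63). Its mean was 0.0142% in aged and 0.00770% in young cells, the only Syt1 site with a higher mean but a lower fraction within methylated cells, at 0.499% in aged and 1.68% in young cells.

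All 7 coding sites had a higher share of methylated cells in aged cells, as had 754 of 796 coding sites of all genes (94.7%). By mean, 2 of the 7 were higher (28.6%), against 462 of the 796 (58.0%). The 7 sites cover much of the protein's plan. Site 11, at chr10:108690975 in exon 5, is the third base of codon 24 of 421, in the part of the protein inside the vesicle. Its mean was 0.0394% in aged and 0.188% in young cells, with 24 methylated aged and 36 methylated young cells. Site 12, at chr10:108631910 in exon 8, is in codon 175, within the first C2 domain, and had a mean of 0.0144% in aged and 0.0534% in young cells.

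Sites 13 and 14 in exon 10 and sites 15 to 17 in exon 11 lie in the second C2 domain. At site 13, codon 275, the mean was 0.00817% in aged and 0.0359% in young cells. At site 14, codon 290, it was 0.00496% in aged and 0.0356% in young cells. Both exon 10 sites were thus lower by mean, on 16 and 15 methylated aged and 19 and 16 methylated young cells. In exon 11 the directions were mixed.

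Site 16, in codon 328 at the end of the lysine-rich stretch through which the second C2 domain binds acidic lipids, was the coding site with the most methylated cells. It was methylated in 103 aged cells, or 12.2% (10.0 to 14.6), and 314 young cells, or 12.0% (10.8 to 13.3), so the shares differed by less than their counting error. The fraction within those cells was 10.4% in aged and 16.9% in young cells, and the mean was 1.27% in aged and 2.03% in young cells (log2 ratio -0.68). Its neighbours on either side were higher. Site 15, in codon 319, 26 bases upstream, had a mean of 0.190% in aged and 0.0919% in young cells, with 4.26% (3.00 to 5.84) of aged and 2.21% (1.68 to 2.85) of young cells methylated. Site 17, in codon 333, 16 bases downstream, had a mean of 0.283% in aged and 0.0423% in young cells (log2 ratio 2.74), the largest increase of the gene as a ratio. It was seen in 16 cells of each age.

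In the 3' UTR the shares were mostly lower in aged cells. By share, 2 of 7 sites were higher, against 341 of 693 3' UTR sites of all genes (49.2%). By mean, 2 of 7 were higher, against 167 of 693 (24.1%). The nearest of these sites, site 18, lay 1043 bases after the last coding base, and the last, site 24 at chr10:108497680, lay 30 bases before the annotated end of the transcript. No listed Syt1 site lay closer to the stop codon on its 3' side.

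Site 23, in the 3' UTR, had the second largest increase of the gene. Its mean was 3.20% in aged and 0.485% in young cells (log2 ratio 2.72), the 65th largest increase in the table, and its adjusted p-value of 3.36e-34 in the authors' deposited table was the smallest among the Syt1 sites. Methylated cells numbered 37 in aged and 60 in young cells, or 4.37% (3.10 to 5.98) and 2.29% (1.75 to 2.93). The fraction within them was 73.3% in aged and 21.2% in young cells. Site 22, 20 bases upstream at chr10:108498246, was methylated in the same number of aged cells, 37, and in 182 young cells, or 6.94% (5.996 to 7.98), and its mean was lower, at 0.329% in aged and 0.966% in young cells. Its edited C follows a TA.

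Site 18 had the largest decrease in the 3' UTR. It was methylated in 4 aged cells, or 0.473% (0.129 to 1.21), and 172 young cells, or 6.56% (5.64 to 7.57). Its mean was 0.471% in aged and 2.04% in young cells (log2 ratio -2.11). Within the 4 aged cells 99.6% of reads were converted, against 31.1% within the 172 young cells. The aged fraction thus rests on 4 cells of unknown read depth. At the other 23 Syt1 sites at least 6 aged cells were methylated.

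Site 19 was methylated in 23 aged cells, or 2.72% (1.73 to 4.05), and 138 young cells, or 5.26% (4.44 to 6.19), with a mean of 0.307% in aged and 0.980% in young cells. Both the share and the fraction within cells were lower in aged cells there, as at sites 20, 22 and 24. Site 20, at chr10:108499239, had a mean of 0.0727% in aged and 0.289% in young cells, and site 24 had 0.125% in aged and 0.374% in young cells. Site 21, at chr10:108498698, was higher by all measures, with a mean of 0.895% in aged and 0.565% in young cells, but its shares of 1.89% (1.08 to 3.05) in aged and 1.79% (1.32 to 2.38) in young cells differed by less than their counting error. The adjusted p-values in the authors' deposited table were 0.00203 at site 18, 0.00665 at site 19 and 0.0345 at site 20, the largest among the Syt1 sites.

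**Figure D3:**
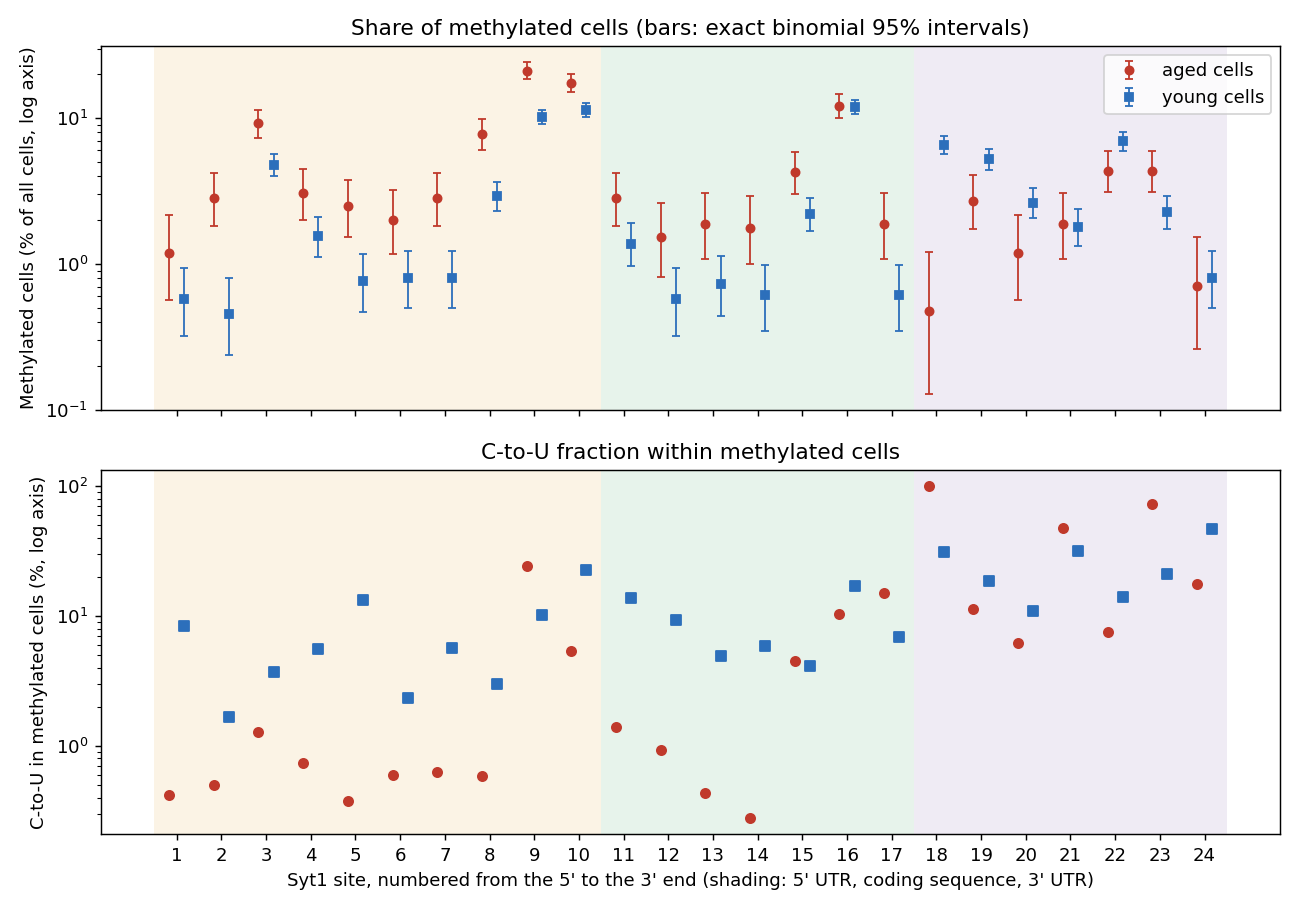
Share of methylated cells with exact binomial 95% intervals (top) and converted fraction in methylated cells (bottom), both in percent on log axes, for Syt1 sites 1 to 24 in aged (circles) and young cells (squares). The aged share is the higher one at sites 1 to 17 and the lower one at 5 of 7 sites of the 3' UTR, and the aged fraction is under 1% at 10 sites, all upstream of exon 11.

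The 95% intervals of the aged and young shares did not overlap at 14 of the 24 sites, with the aged share above at 11 and below at 3. Intervals were not computed for sites of other genes, so these counts have no background and are not read as particular to Syt1. Those 3 were sites 18, 19 and 22. All 17 sites upstream of the 3' UTR had a higher aged share, between 1.02-fold at site 16 and 6.20-fold at site 2. The fraction within methylated aged cells was under 1% at 10 of the 24 Syt1 sites (41.7%), against 486 of 2036 listed sites (23.9%). It was under 1% in young cells at 0 of the 24 Syt1 sites, against 103 of 2055. All 10 of these Syt1 sites lay in exons 1, 3, 8 and 10. Among them, sites 1, 2, 6, 8 and 12 had no A before the C. Fractions this low can rest on few converted reads per cell, and whether they reflect editing or read error was not tested.

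Neighbouring sites could differ in opposite directions. Of 9 pairs of consecutive Syt1 sites within 30 bases in the same exon, 4 had means of opposite direction, namely sites 9 and 10, 15 and 16, 16 and 17, and 22 and 23. Over all listed sites this held for 159 of 538 such pairs (29.6%). The 5 other Syt1 pairs all lay in exon 3.

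Sites whose C followed an A and those without it also differed in level. The fraction within methylated cells had a median of 7.53% in aged and 13.3% in young cells at the 17 sites after an A. At the 7 sites without one it was 0.592% in aged and 3.73% in young cells. Over all genes these medians were 13.0% in aged and 22.1% in young cells after an A. Without an A they were 1.43% in aged and 9.45% in young cells, so the gap was not particular to Syt1. The fraction was lower in aged cells at all 7 Syt1 sites without an A, against 360 of 448 such sites over all genes. Region and base overlap here, since 6 of the 7 lay in the 5' UTR. Within exon 3 the aged fractions were 0.743%, 0.373% and 0.629% at the sites after an A (4, 5 and 7), against 1.28%, 0.592% and 0.590% at those without one (3, 6 and 8), so the lower level without an A was not seen there in aged cells. The young fractions in exon 3 were 5.53%, 13.3% and 5.73% after an A, against 3.73%, 2.36% and 2.98% without one.

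The other genes of vesicle release were counted from lists of pathway members. Of the 14 other synaptotagmins examined, Syt4 and Syt11 had a listed site, each 1 in a 3' UTR and each with a higher mean and share. Syt4 had a mean of 0.256% in aged and 0.149% in young cells, and Syt11 had 0.114% in aged and 0.0472% in young cells. Of 10 genes of the fusion machinery, 3 had listed sites, 33 in all, with 5 higher by mean and 16 by share. Snap25, a SNARE protein that synaptotagmin 1 binds, had 27 of them, with 2 higher by mean, 11 by share and 18 by the fraction within cells. Vamp2, the vesicle SNARE, had 2 of 3 sites higher by mean, and Napb, a factor of SNARE disassembly, had 1 of 3.

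Of 29 regulators of release, 11 had listed sites, 36 in all, with 23 higher by mean and 33 by share. These are 63.9% by mean and 91.7% by share, close to the 58.0% and 94.7% of coding sites over all genes, and 34 of the 36 sites were coding. Of the 36 sites, 17 were coding sites of the active zone scaffold Pclo, 11 of them higher by mean. Erc2, another active zone protein, had 3 of 5 sites higher. The genes with 2 sites were the active zone proteins Bsn, Rims1 and Rims2, with 2 of 2 higher in each, the complexin Cplx2, with 1 of 2, and Cacna1a, a presynaptic calcium channel, with 0 of 2. Of 16 vesicle membrane genes, 6 had 11 sites, with 4 higher by mean and 8 by share. They included the proton pump subunit Atp6v0a1 (2 of 3 higher by mean), the glutamate transporter Slc17a7 (0 of 3) and the proton pump subunit Atp6v1a (0 of 2). The genes with 1 site were Sv2a, a vesicle protein that binds synaptotagmin 1, which was lower, and its relative Sv2b and the synapsin Syn1, which were higher. Of 23 endocytosis genes, 4 had 12 sites, with 6 higher by mean and 9 by share. Dnm1, the dynamin that severs retrieved vesicles, had 4 of 4 higher, Pacsin1 1 of 4, Ap2a2, a subunit of the clathrin adaptor AP-2, 1 of 2, and Synj1, a lipid phosphatase of vesicle uncoating, 0 of 2. Over all listed sites 41.5% were higher by mean and 75.4% by share, but both percentages depend on region. The fusion list held 23 of 33 sites in 3' UTRs, the vesicle membrane list 5 of 11 and the endocytosis list 4 of 12. How many genes of any list could have had a listed site is not known, so the numbers of genes with one have no background.

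Among the 27 genes with at least 10 listed sites, Gm37376, Grin2b and Map1b had medians nearest to those of Syt1, by distance in the log2 ratios of mean and share. The measure rests on 2 ages only. The medians for mean and share were -1.40 and 1.12 at Gm37376, a predicted transcript that lies antisense to Malat1, -1.25 and 0.83 at Grin2b, an NMDA receptor subunit gene, and -1.18 and 1.03 at Map1b, a microtubule protein gene. Snap25, by contrast, had median log2 ratios of -1.44 for the mean and -2.34 for the share. Its ratio for the mean thus resembled that of Syt1, while its ratio for the share did not. These are descriptions of listed sites, and no test of a difference between genes was made.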

How the data were processed

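Libraries were made from aged APOBEC1-YTH cortex with a split-pool barcoding kit, per the labels' protocols. The submitters' processing notes name mm10 and STAR 2.7.5, and the design text names Bullseye for site calling. Read filters, depth normalisation and the authors' test are not stated. The deposited percent and counts of methylated cells were used as the authors gave them, as were their mean C-to-U fraction and their p-value for each site. The counts are of cells. The fraction inside methylated cells was computed as the mean divided by the share. The authors' log2 fold, young over aged, was turned to aged over young. The table lists adjusted p under 0.05, at least 25 methylated cells over both ages and absolute log2 ratios of at least 0.58.

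Positions were read as counted from 0, since 1970 of 2037 sites in GENCODE M21 exons then had a C on the strand of their gene (207 by the other reading). They are printed counted from 1. For 18 sites of other genes no exon was found by name. Sequences are from GENCODE M21 transcripts (GRCm38). Intervals used scipy 1.17.1. Counting and placement were tested on simulated data.

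The sites described in full were the 6 with the largest difference in mean and the 3 with most methylated cells at either age; the rest were chosen after their values were seen, as were the pairs within 30 bases, the sums and the 1% limit. One gene of the fusion list is not reported here and was left out of its counts. Up to 4 genes per pathway list were named by number of sites, with all genes tied for the last place, and 3 genes by likeness. Members and lists were chosen with earlier results of these data known. Alternatives varied the filters, merging, motif and region.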

Additional observations from a re-analysis of the deposited data

How the results depend on the processing

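Counts of higher Syt1 sites (6 by mean, 19 by share and 6 by fraction within methylated cells, of 24) stayed within 1.5 times at adjusted p under 0.01, at 10 methylated cells in each age, at an absolute log2 ratio of at least 1 and with sites within 10 bases merged. By share, 12 of 17 sites after an A and 12 of 16 sites in AAC or GAC were higher. Restricting to a region leaves fewer sites: in the 3' UTR 2 of 7 were higher by mean, 2 by share and 3 by fraction, in coding sequence 2, 7 and 2 of 7, and in the 5' UTR, an alternative chosen after seeing the data, 2, 10 and 1 of 10. The median log2 ratio of the share turned sign in the 3' UTR alone, at -0.67, against 1.01 over all 24 sites. The medians kept their signs under the alternatives that follow. The mean over sites in place of the median gave -0.92 for the mean C-to-U, 0.66 for the share and -1.58 for the fraction. At adjusted p under 0.01, and at 10 methylated cells, the medians were -1.41, 1.05 and -1.87, and with merged sites -1.55, 0.94 and -1.40. The cause was not tested. No paired analysis was possible because the table pools the cells of each age, and for the same reason no library could be left out. The number of methylated cells, under 25 in aged cells at 15 of 24 sites, limits the precision.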
